A study of Mus musculus with 5 samples.

Results

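The neurotrophin genes Bdnf and Ntf3 and the receptor genes Ntrk2, Ntrk3, Ngfr and Sort1 were examined in RNA of the mouse dentate gyrus (DG). These 6 genes were found by their symbols among the 23420 gene symbols of the study, and 5 of them, all but Ngfr, belonged to the 13550 genes with a mean value of at least 5 over the libraries, called expressed genes here. The study asked how voluntary running, and enrichment without running, change DG gene expression. All mice were wild-type CD1, an outbred strain, 4 months old by the sample labels and all male by the study's methods, which give an age of 3 months. LD mice lived alone with a disk that could not turn, RUN mice lived alone with a disk that turned, and CE (complex environment) mice lived in groups with tunnels and a disk that could not turn, each for 4 weeks. RNA of the DG was pooled into 1 library per group, from 8 mice each in LD, CE and RUN, and from 4 mice each in L-RUN and H-RUN, which are the runners of the RUN group with the shortest and the longest distances. The 8 mice of the RUN library were thus measured a further time in L-RUN and H-RUN, and every comparison with LD used the same LD library.

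Neurotrophins are secreted proteins that support the survival of neurons and adjust their synapses. Each is made as a proneurotrophin that is cleaved to a mature form. The mature forms bind Trk receptor kinases, with brain-derived neurotrophic factor (BDNF, from Bdnf) binding TrkB (from Ntrk2) and neurotrophin-3 (from Ntf3) binding TrkC (from Ntrk3). The uncleaved forms bind the p75 receptor (from Ngfr) together with sortilin (from Sort1), which also sorts BDNF precursors inside the cell. In the DG, BDNF is made mainly by granule cells and is well known for its response to neuronal activity and exercise. Ntrk2 gives both a full-length kinase, abundant in neurons, and a truncated form without the kinase, abundant in astrocytes, and the gene-level values used here sum over both.

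Each value is a regularized log value on the log2 scale, on which the read counts of all libraries were normalized together and shrunk towards the mean of each gene. A difference between libraries of at least 0.3 in size, which is 1.23-fold, was called. Since no group had a replicate, no test was possible and no p-value is given. The error stated is a technical SD of a difference, from how far RUN lay from the computed mixture of L-RUN and H-RUN over genes of like expression. It was 0.0365 over all expressed genes. It covers library preparation and sequencing but not variation between mice. Read counts were not among the values used here, so depth is unknown.

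Bdnf lies on the plus strand of chromosome 2 (109674700 to 109727007 in GRCm38, which is mm10) and is known for its many alternative first exons, each with its own promoter. RefSeq gave 10 transcripts of Bdnf, and its promoter windows, which hold 250 bases before and 50 after a start site, covered 7 start sites. Of the 6 genes, 4 had windows (Bdnf, Ntf3, Ntrk2 and Ngfr). The core of the cAMP response element, at which the activity-dependent factor CREB binds, was searched as TGACG or, on the other strand, CGTCA. It occurred in 1 of the 7 Bdnf windows and in none of the windows of Ntf3, Ntrk2 and Ngfr, while 20.8% of all 32817 windows held it. The whole element, TGACGTCA, occurred in 1.79% of all windows and in none of these genes. The files hold 1 value per gene and do not tell which Bdnf start site was used. The 250 bases before a start site are shown for the genes whose values differed most between libraries, from 5′ to 3′ on the gene's own strand, taken from RefSeq (GRCm38.p6). For Bdnf the window with the element is shown, with the core in capitals beginning 35 bases before the start site, and for Ntrk2 the sole window in the table, which had no match.
Bdnf, chr2:109692186-109692435: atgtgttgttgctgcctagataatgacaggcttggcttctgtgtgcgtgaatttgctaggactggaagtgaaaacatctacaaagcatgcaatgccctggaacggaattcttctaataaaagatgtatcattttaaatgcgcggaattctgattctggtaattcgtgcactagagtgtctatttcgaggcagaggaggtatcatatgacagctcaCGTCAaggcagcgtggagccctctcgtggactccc
Ntrk2, chr13:58806319-58806568: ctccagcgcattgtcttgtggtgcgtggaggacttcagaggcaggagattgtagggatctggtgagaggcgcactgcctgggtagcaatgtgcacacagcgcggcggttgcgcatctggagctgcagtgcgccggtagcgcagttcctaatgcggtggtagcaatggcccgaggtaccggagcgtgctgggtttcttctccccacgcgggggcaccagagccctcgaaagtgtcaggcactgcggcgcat

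Per kb of exons, the mean level over the 5 libraries was highest for Sort1 at 11.24 on the log2 scale and lowest for Ngfr at 2.52. Ntrk2 had 9.55, Bdnf 8.65, Ntf3 8.29 and Ntrk3 7.67. Both Trk genes have RefSeq transcripts of very different length, from 3049 to 8744 bases for Ntrk2 and from 3091 to 19703 bases for Ntrk3. With the shortest transcript in place of all exons, Ntrk2 reached 11.28, next to Sort1 at 11.27, and Ntrk3 reached 10.69, above Bdnf at 9.34. The places of Ntrk2 and Ntrk3 in this order therefore depend on which transcripts were present, which gene-level values do not tell. Sort1 stayed above Bdnf, Bdnf above Ntf3 and Ntf3 above Ngfr with all 3 lengths. With all exons, the gap between Bdnf and Ntf3 was about as large as the span of 0.36 of Bdnf itself over the libraries.

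Of the ligands, Bdnf measured 11.07 in LD, 11.08 in CE, 11.26 in L-RUN, 11.33 in RUN and 11.43 in H-RUN. Both libraries of mice without a turning disk were below all 3 libraries of runners, and H-RUN was highest. Against LD, Bdnf was higher by 0.36 in H-RUN (technical SD 0.031, 28.5% more), a called difference that 26 of the expressed genes (0.19%), Bdnf included, reached or passed upwards. The difference was 0.26 in RUN, which 84 genes (0.62%) reached upwards, and 0.19 in L-RUN, which 500 genes (3.69%) reached. In CE it was 0.01, less than the technical SD. Between H-RUN and L-RUN, which share no mice, Bdnf differed by 0.17, or 5.5 times the technical SD. Between RUN and CE, a comparison that does not use the LD library, it differed by 0.25. The value in RUN was 0.024 below that computed from L-RUN and H-RUN. An antisense gene, Gm45346, overlaps 896 bases, or 14.9%, of the Bdnf exons. Whether the counting used the strand is not given in the sources used here, so reads of this gene and of Bdnf in that stretch may not be told apart.

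Ntf3, on the minus strand of chromosome 6 (126101412 to 126166910), was flat by comparison. Its value was 8.99 in LD, 9.10 in CE, 9.10 in L-RUN, 9.08 in RUN and 9.05 in H-RUN. LD was the lowest library, and the other 4 lay within 0.05 of each other. The largest difference from LD was 0.11, in CE and in L-RUN, which was 2.3 times the technical SD of 0.047 and far below the cut-off. Among all expressed genes, 10.82% differed at least as far upwards in CE and 14.24% in L-RUN.

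The TrkB gene Ntrk2 lies on the plus strand of chromosome 13 (58806569 to 59133970). Its value was 13.04 in LD, 13.01 in CE, 12.72 in L-RUN, 12.80 in RUN and 12.86 in H-RUN. Here too the runners were set apart from LD and CE, but below them, and L-RUN rather than H-RUN was farthest from LD. Ntrk2 was lower than in LD by a called difference of -0.31 in L-RUN (technical SD 0.022, a change of -19.5%). This call was close to the cut-off and was lost after quantile normalization (-0.277), with a baseline averaged over LD and CE (-0.298) and with the length trend removed (-0.181). The differences of -0.24 in RUN and -0.18 in H-RUN missed the cut-off, although they were 10.8 and 7.9 times the technical SD. In CE the difference was -0.03. Genes that differed at least as far downwards made up 2.09% of the expressed genes in L-RUN, 1.86% in RUN and 2.93% in H-RUN. H-RUN was 0.14 above L-RUN, and RUN was below CE with a difference of -0.21.

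The TrkC gene Ntrk3 lies on the minus strand of chromosome 7 (78175959 to 78738012). It had 12.37 in LD, 12.23 in CE, 12.32 in L-RUN, 12.34 in RUN and 12.32 in H-RUN. The CE library was lowest, and the 3 libraries of runners lay within 0.05 of LD. The difference of CE from LD was -0.13, which was 6.0 times the technical SD of 0.022, and 7.70% of expressed genes were at least as far below LD. Relative to the trend with exonic length, described below, the difference in CE was -0.03. The 10 genes of like length had a median of -0.09 there. In L-RUN, where Ntrk2 differed by -0.31, Ntrk3 differed by -0.04.

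The p75 receptor gene Ngfr, on the minus strand of chromosome 11 (95568818 to 95587735), was close to the bottom of the measured range. Its value was 4.29 in LD, 4.34 in CE, 4.29 in L-RUN, 4.30 in RUN and 4.30 in H-RUN. At such low levels the regularized log pulls libraries together, so that a span of 0.06 does not show equal expression.

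The sortilin gene Sort1 lies on the plus strand of chromosome 3 (108284082 to 108361511). It had 14.13 in LD, 14.06 in CE, 13.91 in L-RUN, 13.99 in RUN and 14.08 in H-RUN. L-RUN was lowest, and H-RUN was closer to LD than CE was. The difference from LD was -0.22 in L-RUN (technical SD 0.022), which missed the cut-off and which 728 expressed genes (5.37%) reached downwards. It was -0.13 in RUN, -0.07 in CE and -0.05 in H-RUN. H-RUN was above L-RUN by 0.17, as for Bdnf, but for Sort1 this brought H-RUN nearer to LD and for Bdnf it took H-RUN farther away. An antisense gene, Gm12523, overlaps 338 bases, or 4.9%, of the Sort1 exons.

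**Figure D1:**
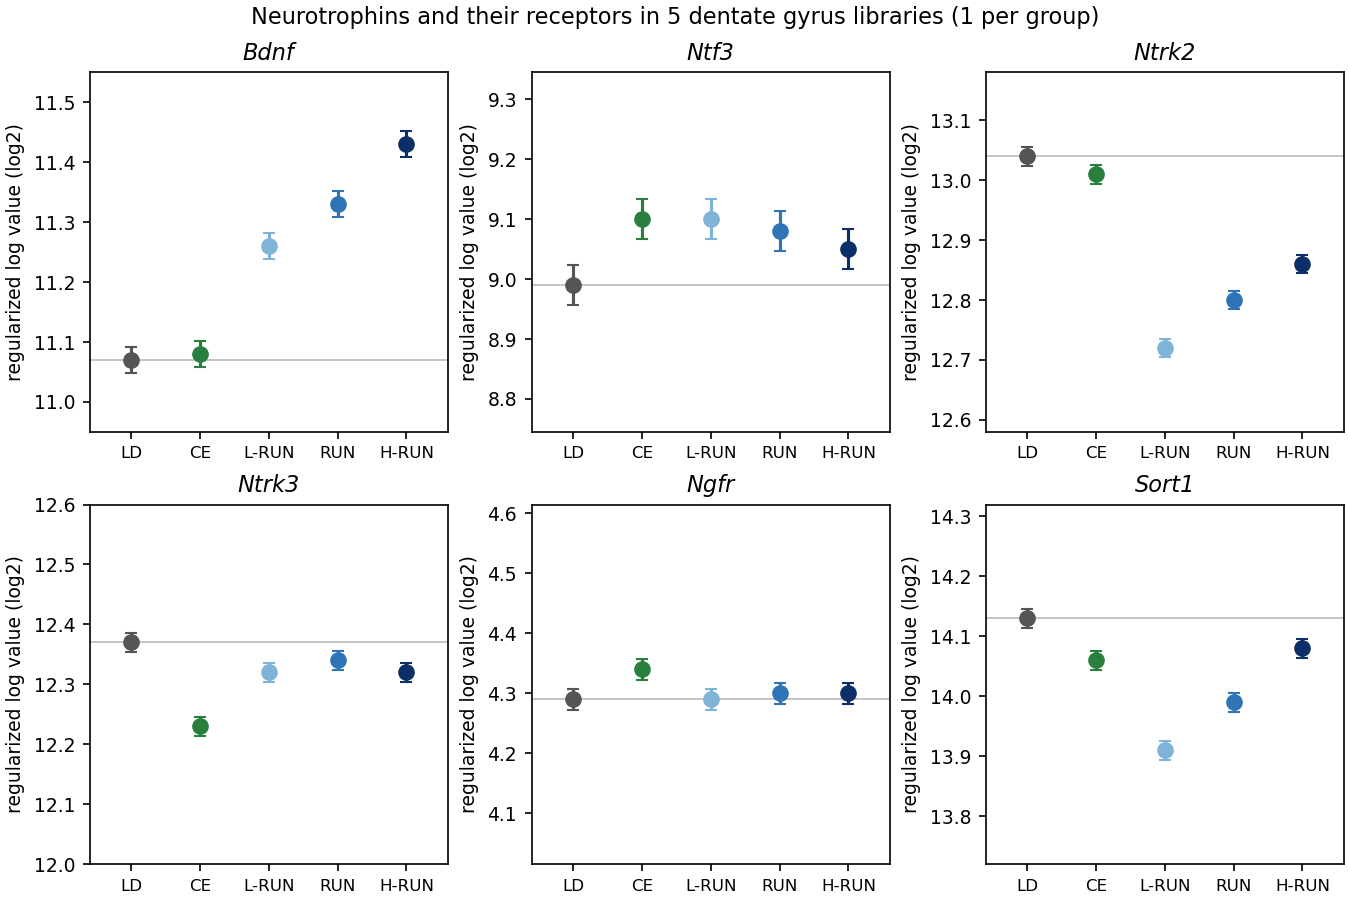
Regularized log values (log2) of the 6 genes in the 5 libraries, 1 panel per gene with the same span of the vertical axis. Each point is 1 library of pooled RNA, bars are the technical SD of 1 library and the grey line is the LD value. Bdnf is at 11.07 in LD and 11.43 in H-RUN, Ntrk2 is at 13.04 in LD and 12.72 in L-RUN, and Ngfr stays between 4.29 and 4.34.

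Of the 6 genes, 0 were called in CE against LD, where 0.598% of all expressed genes were called. Also 0 were called in RUN against LD, where 1.31% of expressed genes were. In L-RUN, 1 was called (Ntrk2, lower), against 3.13% of expressed genes. In H-RUN, 1 was called (Bdnf, higher), against 0.827% of expressed genes. Between H-RUN and L-RUN 0 of the 6 were called, with a background of 1.54%, and between RUN and CE 0 were called, with a background of 0.834%. As a group the genes thus did not move in 1 direction. Over the 5 expressed members the median difference from LD was -0.042 in L-RUN and -0.047 in H-RUN, against -0.002 and -0.004 over all expressed genes. The median size of the difference without its sign was 0.194 in L-RUN for these 5 genes and 0.074 for all expressed genes, and in H-RUN it was 0.064 and 0.052.

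The ligand Bdnf and its receptor gene Ntrk2 lay on opposite sides of LD in all 3 libraries of runners. The difference of Bdnf from LD minus that of Ntrk2 was 0.51 in L-RUN, 0.50 in RUN and 0.54 in H-RUN, with a technical SD of 0.038. In CE it was 0.04. The gap was thus of like size in both sets of runners, though the share of each gene in it differed, Ntrk2 contributing more in L-RUN and Bdnf more in H-RUN. For Ntf3 and Ntrk3 the same quantity was 0.24 in CE and between 0.11 and 0.15 in the running groups, with a technical SD of 0.052. This pair stood farthest apart in CE, which was not a running group. Ntf3 has 1.71 kb of exons and Ntrk3 24.99 kb, and the differences fell with exonic length, as described below. With the length trend removed, Ntf3 and Ntrk3 differed from LD by 0.08 and -0.033 in CE. In the running groups Ntf3 then lay below Ntrk3. The values were 0.055 and 0.153 in L-RUN, 0.051 and 0.128 in RUN, and 0.039 and 0.058 in H-RUN. Few genes are as long as Ntrk3. The trend at its length was -0.2 in L-RUN, -0.15 in RUN and -0.1 in H-RUN. The 10 genes of like length had medians of -0.09, -0.12 and -0.08 there. The order of Ntf3 and Ntrk3 in the running groups thus depends on the trend used and is not firm. These gaps share the LD library and are not independent of each other.

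**Figure D2:**
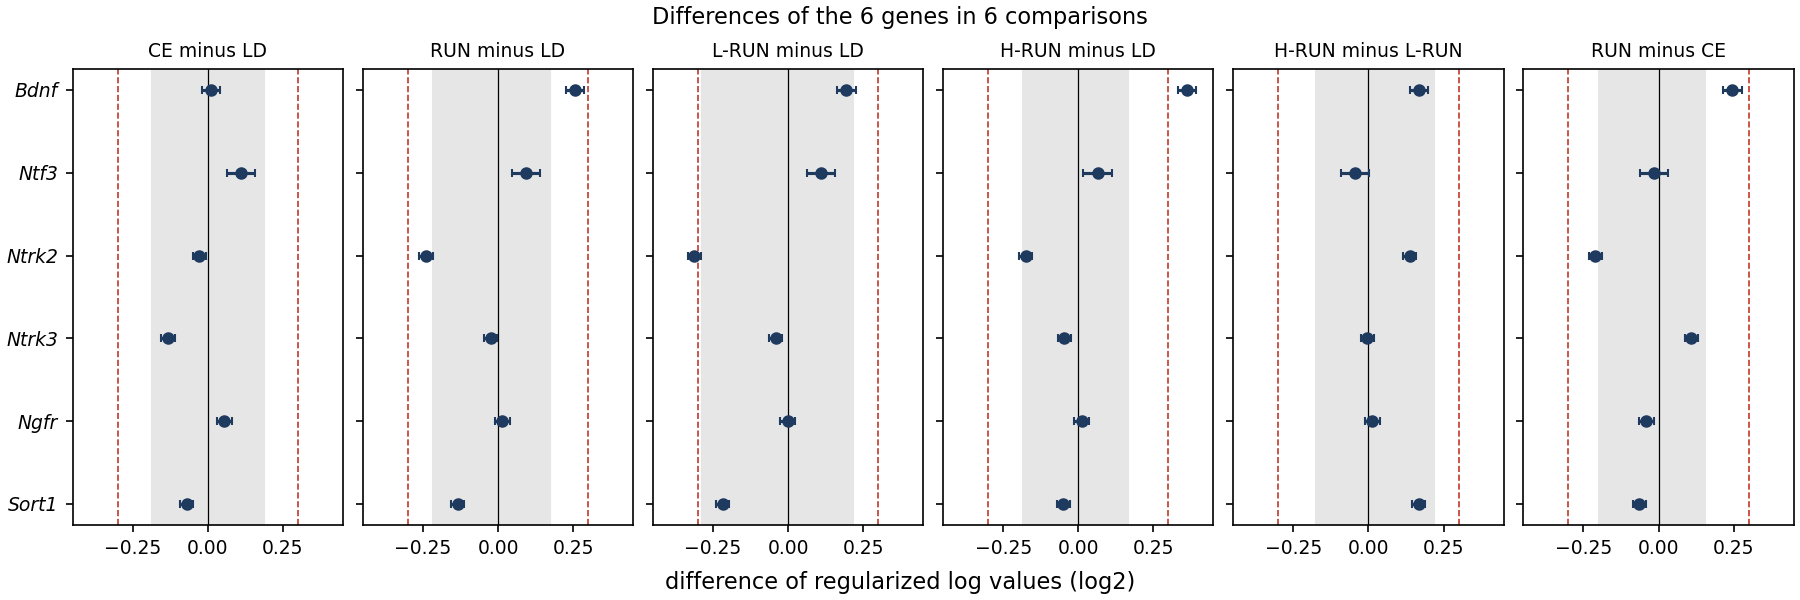
Differences of regularized log values (log2) of the 6 genes in 6 comparisons, with the technical SD of a difference as bars. Grey bands hold the central 95% of expressed genes and dashed red lines mark the cut-off of 0.3. Bdnf in H-RUN minus LD (0.36) and Ntrk2 in L-RUN minus LD (-0.31) are the points past the cut-off, and Bdnf in RUN minus LD (0.26) and Ntrk2 in RUN minus LD (-0.24) lie outside the grey band but inside the cut-off.

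Length moved with these differences. Across 12765 expressed genes, the Spearman correlation of the difference from LD with exonic length was -0.53 in L-RUN, -0.51 in RUN, -0.38 in H-RUN and -0.32 in CE, and the genes share the same libraries. Ntrk2, with 10.13 kb of exons, is a long gene, and the 483 genes of like length had a median difference of -0.14 in L-RUN. Relative to the lowess trend with length, Ntrk2 differed by -0.18 in L-RUN, -0.14 in RUN and -0.11 in H-RUN. It was thus no longer past the cut-off but still below the trend at its length. How many genes of its length lay as low was not counted. Sort1, with 6.90 kb, differed by -0.13 in L-RUN relative to the trend. Bdnf, with 6.01 kb, went against the trend, and its differences relative to it were 0.27 in L-RUN, 0.31 in RUN and 0.40 in H-RUN. Ntrk3, with 24.99 kb, was above the trend by 0.15 in L-RUN, where few genes are as long. The part of transcript length, or of RNA quality, in these values was not tested.

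**Figure D3:**
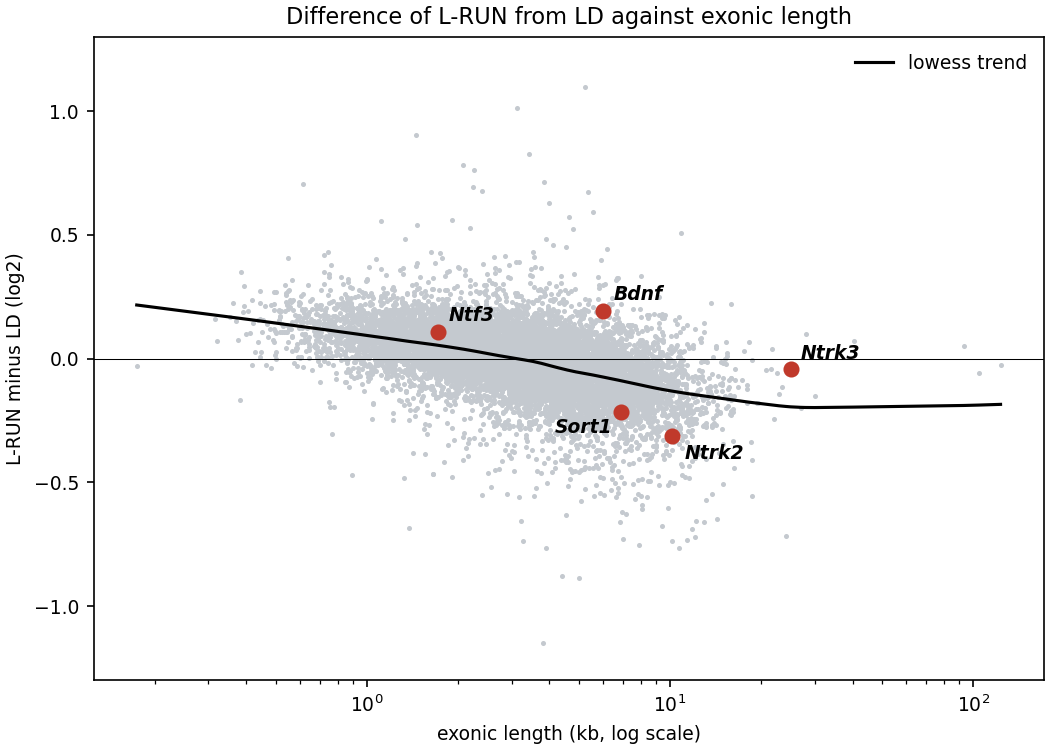
Difference of regularized log values (log2) between L-RUN and LD against exonic length in kb on a log axis, for 12765 expressed genes (grey) and the 5 expressed members (red), with the lowess trend in black. Ntrk2 and Sort1 lie below the trend, by -0.18 and -0.13, and Bdnf lies 0.27 above it.

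Cell type markers also differed between the libraries, and in bulk RNA fewer cells of a type cannot be told apart from less RNA per cell. The tissue had the markers of the DG, with all 9 granule cell markers expressed, and their summed level was between 15.02 and 15.13 in all libraries. Single markers differed in both directions, with Prox1 at -0.41, C1ql2 at 0.37 and Plk5 at 0.36 in L-RUN and C1ql2 at 0.40 in H-RUN, and in CE 7 of 9 were below LD with a median of -0.14. The summed level of 8 astrocyte markers was 16.73 in LD, 16.58 in CE, 16.44 in L-RUN, 16.56 in RUN and 16.67 in H-RUN. All 8 were below LD in L-RUN and 6 of 8 in H-RUN. In L-RUN this sum differed from LD by -0.29, in CE by -0.15 and in H-RUN by -0.06, where Ntrk2 differed by -0.31, -0.03 and -0.18. The sum is weighted towards the abundant glutamate transporter genes Slc1a2 (-0.36 in L-RUN) and Slc1a3 (-0.30), and the median of the 8 markers was -0.085 in L-RUN, -0.055 in CE and -0.036 in H-RUN. The summed level of 5 CA1 pyramidal cell markers differed from LD by -0.37 in L-RUN, -0.21 in RUN, -0.11 in H-RUN and 0.07 in CE, and in L-RUN all 5 were below LD. The summed level of 8 oligodendrocyte markers differed by -0.21 in L-RUN, with all 8 below LD, and by -0.03 in H-RUN. The 16 leptomeningeal markers had a summed level 0.62 above LD in L-RUN, with all 13 expressed ones above LD, and -0.19 from LD in H-RUN. The median of these 13 was 0.674 in L-RUN and -0.006 in H-RUN, where Dcn (-0.52) and Ogn (-0.68) were lower. Bdnf differed from LD by 0.19 in L-RUN and by 0.36 in H-RUN. For the lists of CA2 and CA3 pyramidal cells, interneurons, immature neurons, oligodendrocyte precursors, microglia, endothelial cells and choroid plexus, the summed level in L-RUN differed from LD by between -0.13 (microglia) and 0.17 (immature neurons). No marker was at 0 in all libraries. The part of any of these cell types in the values of Ntrk2, Sort1 or Bdnf was not tested.

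The genes whose 5 values most resembled those of Bdnf, by the root mean square distance between values centred on each gene's mean, were Lrrc10b, Kcnj2, Svil, Nptx2 and Acvr1c. Their distances from Bdnf were between 0.028 and 0.035. Kcnj2 encodes an inwardly rectifying potassium channel, Svil an actin-binding protein, Nptx2 a secreted pentraxin that clusters AMPA receptors at synapses, and Acvr1c the activin receptor ALK7. In H-RUN they differed from LD by 0.41 (Lrrc10b), 0.39 (Kcnj2), 0.29 (Svil), 0.42 (Nptx2) and 0.31 (Acvr1c), and in CE by between -0.10 and 0.01. All 5 were lowest in the libraries without running and highest in H-RUN. This follows from choosing them for likeness to Bdnf over the same values and is not a separate result.

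The 5 genes most like Ntrk2 were Tyro3, Rgmb, Ttbk1, Ptprg and Xylt1, at distances between 0.009 and 0.016. Tyro3 encodes a receptor tyrosine kinase, Rgmb a co-receptor of bone morphogenetic proteins, Ttbk1 a kinase that phosphorylates tau, Ptprg a receptor tyrosine phosphatase and Xylt1 an enzyme that starts glycosaminoglycan chains. Their differences from LD in L-RUN were -0.32 (Tyro3), -0.32 (Rgmb), -0.27 (Ttbk1), -0.29 (Ptprg) and -0.33 (Xylt1). In H-RUN the differences were smaller, between -0.19 and -0.14. The shared differences of these 5 genes likewise follow from choosing them for likeness to Ntrk2. These likenesses rest on 5 libraries of which RUN repeats the mice of L-RUN and H-RUN, and they describe the values alone.

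**Figure D4:**
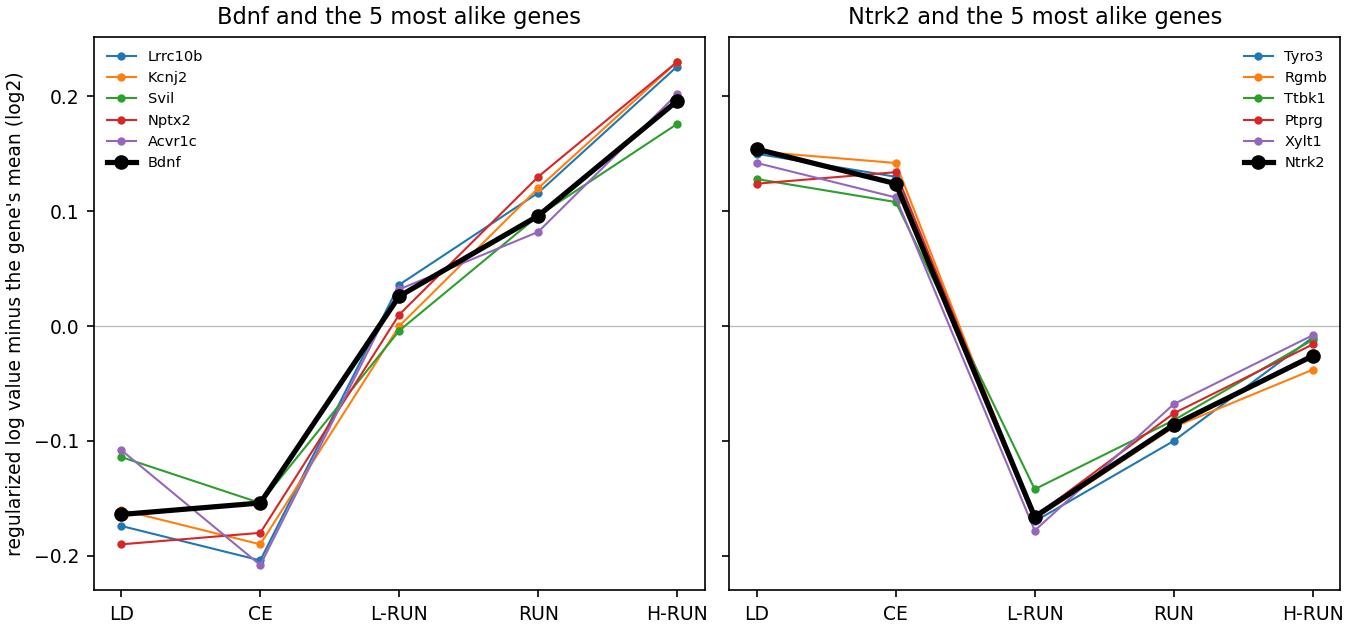
Regularized log values (log2) in the 5 libraries, each gene centred on its own mean, for Bdnf and Ntrk2 (black) and the 5 expressed genes nearest to each (coloured). The Bdnf panel rises from LD and CE to H-RUN, and the Ntrk2 panel is highest in LD and CE and lowest in L-RUN.

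Around the 6 genes, 150 further genes of neurotrophin production and signalling were taken in 10 lists, of which 142 were expressed. Of these, 2 were called lower and 0 higher in CE (1.41% called), 10 lower and 1 higher in RUN (7.75%), 15 lower and 3 higher in L-RUN (12.7%) and 2 lower and 2 higher in H-RUN (2.82%). In H-RUN against L-RUN, 10 were higher and 2 lower (8.45%), and in RUN against CE 1 was higher and 1 lower (1.41%). In the order of the comparisons above, the shares of all expressed genes called were 0.598%, 1.31%, 3.13%, 0.827%, 1.54% and 0.834%. With a baseline averaged over LD and CE, 4 of the 142 were called in RUN and 2 in H-RUN, and with the length trend removed, 7 were called in RUN and 7 between H-RUN and L-RUN. The shares of all expressed genes called under these settings were not computed. The median difference of the 142 genes from LD was -0.071 in L-RUN and -0.036 in H-RUN, against -0.002 and -0.004 over all expressed genes, which were not matched for exonic length. The lists were drawn up with earlier results of these libraries known, and Cbl, Irs2, Prkcd, Itpr1, Prkcb, Mef2a, Mef2d, Arc, Nptx2, Ptgs2 and Npy are among the genes the study named from these libraries, so the counts are not independent evidence of a direction.

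Of the other ligands, Ntf5, the neurotrophin-4 gene, was below the filter. Of 6 other receptor genes 5 were expressed. The sortilin relative Sorl1, which sorts proteins between the Golgi and endosomes, had 12.11 in LD, 11.86 in CE, 11.34 in L-RUN, 11.65 in RUN and 11.82 in H-RUN. It followed the order of Sort1 for the running groups but over a wider span, with a difference of -0.77 in L-RUN, -0.46 in RUN and 0.48 between H-RUN and L-RUN.

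Of 12 expressed genes of proneurotrophin sorting and cleavage, 1 was called higher in L-RUN against LD and 0 in the other comparisons with LD. This was Plat, the gene of tissue plasminogen activator, with a difference of 0.32. Pcsk1, the gene of a prohormone convertase, was called lower in RUN against CE with -0.32. Of 24 Trk adaptors and endocytic regulators 1 was called in RUN and in L-RUN, the ubiquitin ligase gene Cbl, with -0.51 in RUN, -0.73 in L-RUN and 0.49 between H-RUN and L-RUN. Of the 24, 18 were below LD in RUN (median -0.072), 17 in L-RUN (median -0.077), 16 in H-RUN (median -0.043) and 15 in CE (median -0.035). Of 15 partners of p75, Zfp369 was called lower in RUN (-0.32) and L-RUN (-0.55), and Bex1 higher in L-RUN (0.32).

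The 3 signalling branches below Trk receptors were counted in turn. Of 16 genes of the Ras and MAP kinase branch, 0 were called in any of the 6 comparisons. The shares of all expressed genes called were between 0.598% and 3.13%, so 0 of 16 genes does not set this branch apart. Of 18 genes of the PI3 kinase and Akt branch, 2 were lower in RUN and 3 in L-RUN, among them Irs2, an insulin receptor substrate, at -0.31 and -0.42. In RUN and in L-RUN, 16 of the 18 were below LD, as were 15 in CE and 13 in H-RUN. Of all expressed genes, between 50.7% and 52.0% were below LD in these comparisons. These shares are not matched for exonic length, with which the differences fell, and the part of length in the list counts was not tested. Foxo3, a transcription factor that Akt inhibits, was 0.33 higher in H-RUN than in L-RUN. Of 15 genes of the phospholipase C gamma branch, 4 were lower in L-RUN, 2 in RUN, 1 in H-RUN and 2 in CE. Itpr1, the calcium release channel of the endoplasmic reticulum, was lower than LD in every other library, with differences of -0.37 (CE), -0.60 (L-RUN), -0.48 (RUN) and -0.40 (H-RUN). The protein kinase C gene Prkcb differed by -0.56 in L-RUN and Prkcd by -0.40 in CE. In H-RUN against L-RUN 4 genes of this branch were higher, among them Prkcb by 0.41 and Prkca by 0.32. Whether the branches differ from each other was not tested.

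Of 20 genes of factors known to regulate Bdnf transcription, 0 were called higher in any comparison with LD. The share of all expressed genes called higher against LD ranged from 0.332% (CE) to 0.797% (L-RUN), with 0.354% for H-RUN. A count of 0 of 20 therefore does not set these factors apart. The activity-dependent factors Mef2a and Mef2d were lower in RUN (both -0.31) and L-RUN (-0.43 and -0.44). Bhlhe40, a repressor, was called lower in both H-RUN (-0.36) and L-RUN (-0.30), and it differed by -0.27 in RUN and -0.15 in CE. Creb1 had 11.16 in LD and between 10.98 and 11.03 elsewhere.

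The genes known to be induced by TrkB signalling, of which 16 of 18 were expressed, did not move together. The immediate early gene Arc, which acts at active synapses, was lower in RUN (-0.33) and L-RUN (-0.45), as was the transcription factor gene Egr3 in L-RUN (-0.33). In contrast Nptx2 was higher in RUN (0.32) and H-RUN (0.42), and Ptgs2, the gene of cyclooxygenase-2, was higher in H-RUN (0.40). The neuropeptide genes Npy and Tac1 were called lower in H-RUN than in L-RUN, with -0.32 and -0.36. Against LD, Npy was called higher in L-RUN (0.32) and differed by -0.0016 in H-RUN, and Tac1 differed by 0.28 and -0.09. Against LD, 1 gene of this list was higher and 1 lower in RUN, 1 higher and 2 lower in L-RUN, and 2 higher and 0 lower in H-RUN. Of all expressed genes, 0.362% were called higher and 0.952% lower in RUN. The shares were 0.797% and 2.33% in L-RUN, and 0.354% and 0.472% in H-RUN.

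**Figure D5:**
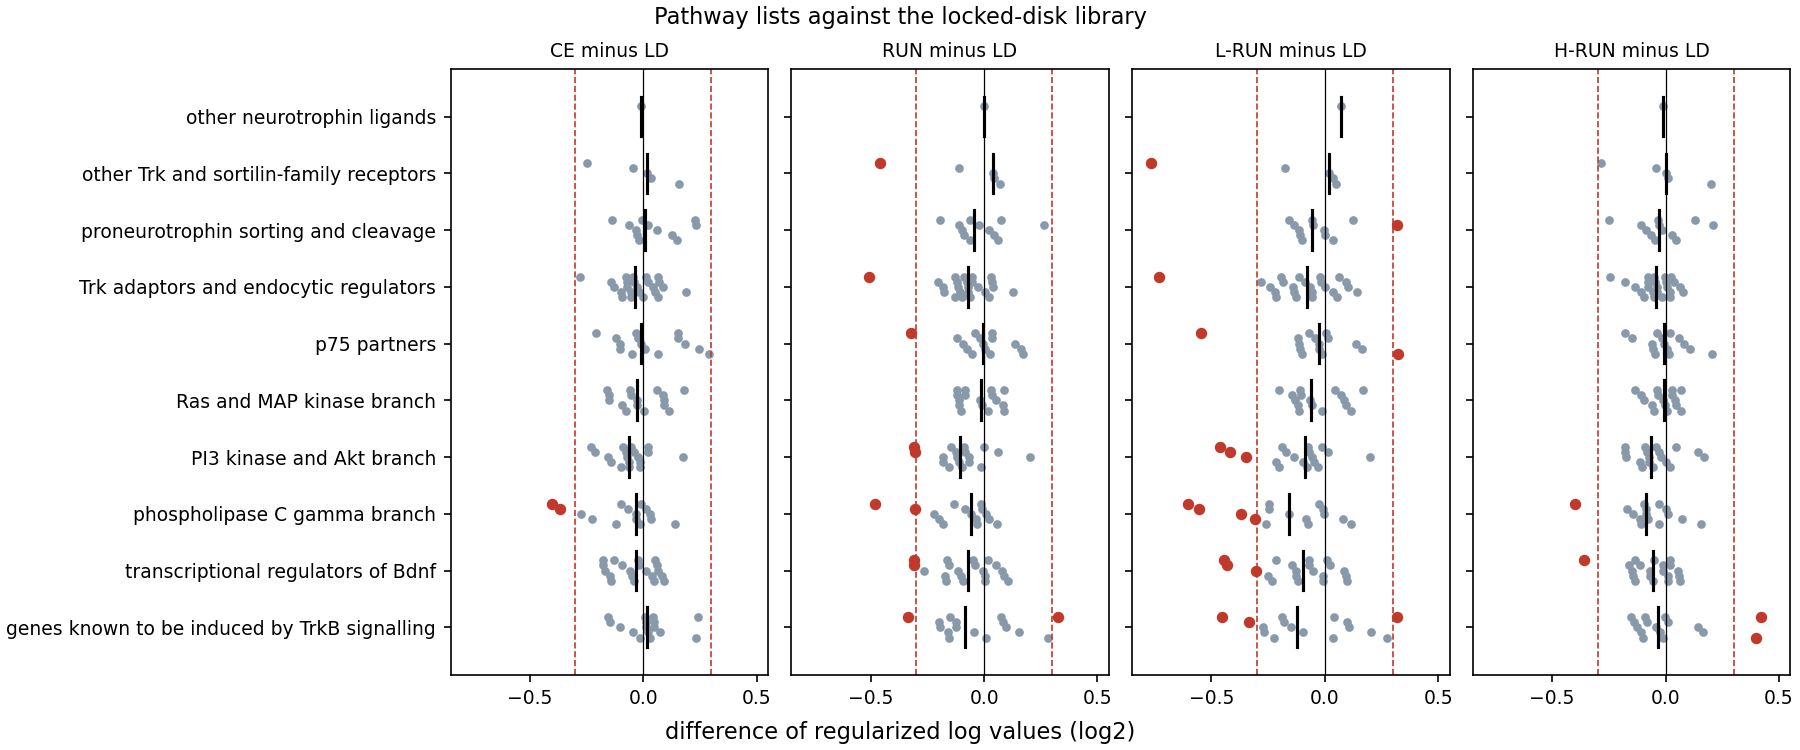
Differences of regularized log values (log2) from LD for the expressed genes of 10 lists of neurotrophin signalling, with 1 point per gene, list medians as black bars and genes past the cut-off of 0.3 (dashed) in red. In L-RUN 15 genes lie past the lower line and 3 past the upper line, and in H-RUN 2 lie past each.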

How the data were processed

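Total RNA of the microdissected DG was extracted and pooled by group, and libraries were made with the TruSeq RNA kit. The authors trimmed adapters, mapped reads to mm10 with TopHat2 2.0.10, used HTSeq for counts on RefSeq genes and normalized all libraries at once with DESeq2 1.10.1. The submitters' processing notes also name CASAVA 1.8.2. The authors deposited regularized log values on the log2 scale for 23420 symbols in each library. Shrinkage lowers differences of weakly expressed genes and cannot be undone without counts. Conditions came from the sample labels, and pool sizes from the methods of the study.

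Differences were taken between libraries and called at 0.3 or more in size. Expressed genes had a mean of at least 5. The technical SD came from how far RUN departed from an equal linear mixture of L-RUN and H-RUN, in log2 (median absolute deviation, per decile of mean value). It takes the 3 libraries as equally noisy. Lengths came from exons of RefSeq-linked transcripts in GENCODE (GRCm38), found for 94.2% of expressed genes, with a lowess fraction of 0.3, and marker sums were taken on the linear scale. The members and lists were chosen with earlier results of these data known. Named genes are the 6 members, at most 2 called genes per list and comparison with the largest difference, and the 5 genes nearest to each member with a span of at least 0.3. Genes chosen outside this rule, after their values were seen, are Ntf5 and Creb1. The markers Prox1, C1ql2, Plk5, Slc1a2, Slc1a3, Dcn and Ogn were also named outside it, from the marker lists. Some genes that the rule or the lists hold are not reported here by name. Alternatives were other cut-offs and filters, centring, quantile normalization, the computed mixture for RUN, a baseline averaged over LD and CE, and removal of the length trend. Scripts were tested on simulated data. Software was matplotlib 3.10.9, statsmodels 0.14.6, pandas 2.3.3, numpy 2.4.6, scipy 1.17.1 and python 3.11.15.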

Additional observations from a re-analysis of the deposited data

How the results depend on the processing

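With 1 library per group no replicate could be left out, no paired analysis was possible because no group had a replicate library, and no count-based alternative could be run. At a cut-off of 0.2, 2 of the 6 genes were called in RUN against LD, in L-RUN against LD and in RUN against CE. At 0.4, 0 were called in L-RUN and 0 in H-RUN. Ntrk2 in L-RUN, at -0.312, fell short of the cut-off after quantile normalization (-0.277), removal of the length trend (-0.181) and with a baseline averaged over LD and CE (-0.298), each leaving 0 genes called there. Removal of the length trend took Bdnf in RUN from 0.256 to 0.313, so that 1 gene was called. Bdnf in H-RUN stayed called in every alternative but the cut-off of 0.4. Of the values of single genes, 86 moved by less than the technical SD, 46 by more, and none changed sign where called. The technical SD of Ntrk2, Ntrk3 and Sort1 rose from 0.0222 to 0.0365 when it was taken over all expressed genes. Of the pathway genes, cut-offs of 0.2 and 0.4 called 36 and 10 in L-RUN, 17 and 3 in RUN, 10 and 2 in H-RUN, 15 and 1 in CE, 23 and 3 between H-RUN and L-RUN, and 17 and 0 between RUN and CE. Without the length trend, 7 were called in RUN and 7 between H-RUN and L-RUN. With that averaged baseline, 4 were called in RUN and 2 in H-RUN. The shares of all expressed genes called under these alternatives were not computed. The counts of members and pathway genes under them therefore cannot be read against a background. Beyond what a stricter or looser cut-off does by construction, the cause of these shifts was not tested. Depth is unknown, so what it limits cannot be stated.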
